A study of Mus musculus with 35 samples.

Results

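Acetylation of histone H3 at lysine 27 (H3K27Ac) was compared between wild-type mouse retinae at P14 and at P0, the day of birth, by ChIP-Seq with the antibody labelled H3K27Ac-AB2. The members are the 4 wild-type H3K27Ac libraries of these stages, 2 at P0 and 2 at P14, of 35 samples in the series, 27 of which had a list of peaks or islands. The peaks of the 4 libraries were merged wherever they shared at least 1 bp, which gave 58797 regions. Peaks that shared no base stayed separate, however short the gap. A broad acetylated domain can therefore count as several regions in the shares and intervals below. Each region received a height in each library, the largest fold enrichment over background of its peaks there, or 0 where the library had no peak. A region was called gained when both P14 libraries and neither P0 library had a peak, lost when the reverse held, and stable when all 4 libraries had a peak. The question was which retinal chromatin acquired or shed this mark in the first weeks after birth.

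H3K27Ac is deposited at active promoters and enhancers. H3K4me3 marks promoters, whereas H3K27me3 is laid down by Polycomb complexes at silenced genes and cannot sit on the same histone tail residue as H3K27Ac. Brg1 is an ATPase of the SWI/SNF complexes, which move nucleosomes. The newborn mouse retina still holds dividing progenitor cells and young neurons, and by P14 cell production has ended and rod photoreceptors are the most abundant cells.

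The other libraries set beside these regions were wild-type retinae with H3K4me3 at P0 (2 libraries), P14 (2) and P21 (2), wild-type retinae with H3K27me3 at the same stages (2 each), wild-type retinae with H3K27Ac at P12 (1) and P21 (2), BRG1 -/- retinae with H3K27Ac at P12 (2), and P0 retinae of Brg1-FLAG knock-in pups with Brg1 (1). The BRG1 -/- retinae carried a Chx10-Cre transgene that is active in a mosaic of retinal cells, so they keep some cells with Brg1. No Cre is named for the wild-type retinae. The study describes its histone ChIP-Seq as biological duplicates. The labels give no sex or strain and do not say how many animals entered each library. Whole retinae were used, and more cells of a type and more acetylation per cell cannot be told apart. No gene or promoter is named below because no annotation of the lists' build, mm9, was used. Positions are those of the peak lists.

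The P0 lists held 17588 and 29304 peaks and the P14 lists 17433 and 50005 peaks, for replicates 1 and 2. They covered 9.75 and 20.8 Mb at P0 and 12.9 and 40.2 Mb at P14. Replicate 1 was therefore the shorter list at both stages. The number of reads is unknown. Of the P0 peaks, 55.9% in replicate 1 were met by a peak in P14 replicate 1, and 66.8% in replicate 2 by a peak in P14 replicate 2. Of the P14 peaks, 53.0% in replicate 1 and 36.0% in replicate 2 were met by a peak of the same-numbered P0 list. Within P0, replicate 2 met 97.8% of the peaks of replicate 1, and replicate 1 met 50.3% of those of replicate 2. Within P14 these shares were 99.1 and 27.3%. Shares between lists of unlike length are thus not a measure of the change between stages alone.

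There were 8196 stable regions (13.9% of 58797, Wilson 95% interval 13.7 to 14.2%), 3996 gained regions (6.80%, interval 6.60 to 7.003%) and 1334 lost regions (2.27%, interval 2.15 to 2.39%). These intervals and those below cover counting error only. The remaining 45271 regions had mixed patterns, and 27556 of them had a peak in P14 replicate 2 alone. Gained regions thus made up 74.97% of the regions that were gained or lost. This share depended on list length. When each list was cut to its 17433 peaks of highest −log10 q-value, 3302 regions were gained, 2355 were lost and 7939 were stable, and the gained share was 58.4%. Of these gained regions, 2793 (84.6%) had no peak in either full P0 list, whereas 1022 (43.4%) of these lost regions had no peak in either full P14 list. Leaving out P14 replicate 1 gave 31891 gained and 12538 stable regions, and leaving out P14 replicate 2 gave 6625 gained and 5950 lost regions. Leaving out P0 replicate 1 gave 9720 lost regions and turned the majority, with a gained share of 29.3%, and leaving out P0 replicate 2 gave 2060 lost regions and a gained share of 70.8%. The counts are therefore those of regions found in both libraries of a stage, and the excess of gained over lost regions did not hold under every choice of libraries.

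**Figure D1:**
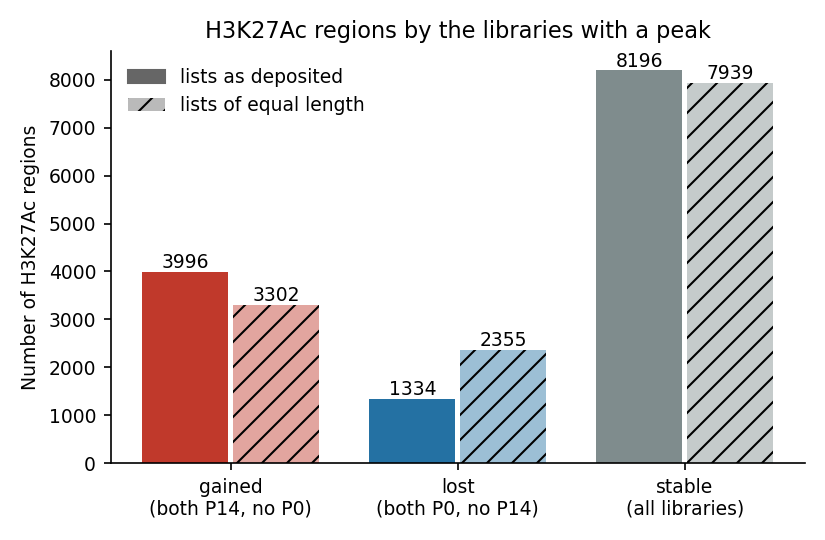
Number of H3K27Ac regions (vertical axis) that were gained, lost or stable between P0 and P14, from the lists as deposited (filled bars) and from lists of equal length (hatched bars). Gained regions outnumbered lost regions in both, 3996 against 1334 and 3302 against 2355.

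Stable regions were the widest, with a median of 1530 bp, against 1205 bp for gained and 720 bp for lost regions. These are widths of merged peaks. Stable regions merge peaks of both stages, gained regions those of P14 alone and lost regions those of P0 alone. The widths therefore depend on how the classes were defined, and the part of this in their order was not tested. Stable regions had median heights of 9.64 and 10.5 at P0 and 7.31 and 16.2 at P14 in replicates 1 and 2. Gained regions had median heights of 5.52 and 7.54 in the P14 libraries, and lost regions 4.83 and 5.77 in the P0 libraries. Gained and lost regions were thus lower than stable regions in each library in which they had a peak. The weakest peaks of the lists had a fold enrichment between 1.62 and 2.22. These minima are not limits of detection, and a region without a peak may hold acetylation above them. Among all regions with a peak in P14 replicate 1, the 25th percentile of the height was 4.91.

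The gained regions named here are 5 of the 10 with the highest values of the lower of their P14 heights. Over the 10, heights were 18.8 to 28.5 in P14 replicate 1 and 18.8 to 25.8 in P14 replicate 2. The region chr19:4137910-4141921 had a height of 0 in both P0 libraries and of 21.6 and 22.0 at P14. It had an H3K4me3 peak in neither P0 library, and H3K4me3 heights of 27.6 and 30.6 at P14 and 61.2 and 20.4 at P21. No Brg1 peak lay there at P0. Acetylation and H3K4me3 were thus both above threshold at the later stages alone at this region.

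The region chr11:90048909-90050980 had no P0 peak and heights of 20.8 and 22.0 at P14. Its H3K4me3 heights were 45.4 and 28.3 at P14, with no peak at P0 and no Brg1 peak. The region chr11:120312742-120316709 reached 28.5 and 20.8 at P14, with H3K4me3 heights of 22.9 and 34.2 at P14, none at P0, and a Brg1 peak of 3.83. The region chr9:62904383-62908957 differed from these. It had H3K27Ac heights of 21.4 and 25.8 at P14, and weak H3K4me3 was already called at P0, at 4.15 and 5.45, against 13.9 and 12.3 at P14. A Brg1 peak of 5.91 lay there. The region chr11:6410560-6417871, 7312 bp wide, had H3K27Ac heights of 19.1 and 23.1 at P14 and low H3K4me3 heights of 4.66 and 4.79. None of the 10 regions had an H3K27me3 island in any P0, P14 or P21 library.

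The lost regions named here are 7 of the 10 with the highest values of the lower of their P0 heights. Of the 10, 6 had no H3K27me3 island in any P0, P14 or P21 library, 2 had islands at P14 and not at P0, and 2 had islands at both stages. The region chr7:52471020-52472976 had H3K27Ac heights of 14.2 and 13.9 at P0 and no peak at P14. Its H3K4me3 heights were 40.8 and 42.3 at P0 and 11.8 and 7.32 at P14. It lay in H3K27me3 islands of both P14 and both P21 libraries and of no P0 library. A Brg1 peak of 12.3 was present at P0. Acetylation was thus absent from the lists, H3K4me3 was lower and H3K27me3 had appeared at the later stage.

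The region chr12:28027748-28029185 had the same order of marks, with H3K27Ac heights of 14.5 and 10.6 at P0, H3K4me3 heights of 47.2 and 34.4 at P0 and 37.0 and 20.2 at P14, and H3K27me3 islands in both P14 libraries and no P0 library. The H3K4me3 heights of the stages did not overlap at chr7:52471020-52472976 and did overlap here. The region chr3:34561567-34564693 had H3K27Ac heights of 11.8 in both P0 libraries. It already lay in H3K27me3 islands of both P0 libraries, and its H3K4me3 heights were 13.4 and 22.996 at P0 and 8.79 and 4.66 at P14. The region chr7:56136596-56138110 was different in H3K4me3. Its H3K27Ac heights of 16.8 and 13.7 at P0 gave way to no peak at P14, while H3K4me3 heights were 48.5 and 53.1 at P0 and 56.8 and 52.4 at P14, and islands of H3K27me3 were present in all libraries of P0, P14 and P21. The region chr2:131331277-131333695, with H3K27Ac heights of 12.5 and 13.8 at P0, had H3K4me3 in P0 replicate 2 alone, at 4.47, no H3K27me3 and a Brg1 peak of 8.21. Without islands at any stage were also chr17:56441822-56444504, with H3K27Ac heights of 12.6 and 18.2 at P0 and H3K4me3 heights of 45.5 and 71.1 at P0 and 39.7 and 31.7 at P14, and chr3:27052077-27052783, with H3K27Ac heights of 11.6 and 18.1 at P0. At the latter, H3K4me3 was at 32.0 and 92.2 at P0 and 40.9 and 27.9 at P14, so the stages overlapped.

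The stable regions with the highest mean height are given for scale. The region chr17:28937249-28939418 had heights of 30.2 and 29.8 at P0 and 33.9 and 44.3 at P14. The region chr10:79626513-79631541 had heights of 27.1 and 31.0 at P0 and 34.9 and 34.5 at P14. Both carried H3K4me3 in every P0, P14 and P21 library.

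H3K4me3 separated stable from changing regions. At stable regions, 97.5 and 97.9% overlapped an H3K4me3 peak of the P0 libraries and 97.9 and 97.8% of the P14 libraries. At gained regions the share was 7.01 and 8.26% at P0 and 21.7 and 24.8% at P14. At lost regions it was 32.8 and 36.7% at P0 and 21.9 and 22.0% at P14. For gained regions the intervals at P14 (20.4 to 22.98% and 23.5 to 26.1%) lay above those at P0 (6.26 to 7.84% and 7.44 to 9.15%), and for lost regions they lay below. At P21 46.9 and 23.6% of gained regions overlapped H3K4me3, and the P21 lists held 24124 and 18534 peaks. At lists of equal length, 11.9 and 13.7% of gained regions overlapped H3K4me3 at P0 and 30.5 and 33.7% at P14, and 58.2 and 62.0% of lost regions at P0 and 48.8 and 49.0% at P14, so the directions were kept and the levels were higher.

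Most gained regions, 2920 of 3996 (73.1%), overlapped no H3K4me3 peak at either stage, and 834 of 1334 lost regions (62.5%) likewise. A region without such overlap is counted here even where a neighbouring region had H3K4me3. Both libraries of a stage had H3K4me3 at P14 and neither at P0 in 509 gained regions and in 0 lost regions. The reverse, H3K4me3 at P0 alone, was found in 6 gained and 124 lost regions. The 509 gained regions with H3K4me3 at P14 alone had a median width of 1986 bp and median H3K27Ac heights of 7.81 and 10.04 at P14, against 1113 bp and 5.39 and 7.02 for the gained regions without H3K4me3. A further 244 gained regions and 275 lost regions had H3K4me3 in both libraries of both stages. With the full lists, some of the changing acetylation thus lay where H3K4me3 was called throughout, and most overlapped no H3K4me3 peak of P0 or P14. For lost regions this depended on list length. At lists of equal length, 57.7% of lost regions had H3K4me3 in both P0 libraries and 47.6% in both P14 libraries. For gained regions these shares were 11.6 and 28.6%.

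**Figure D2:**
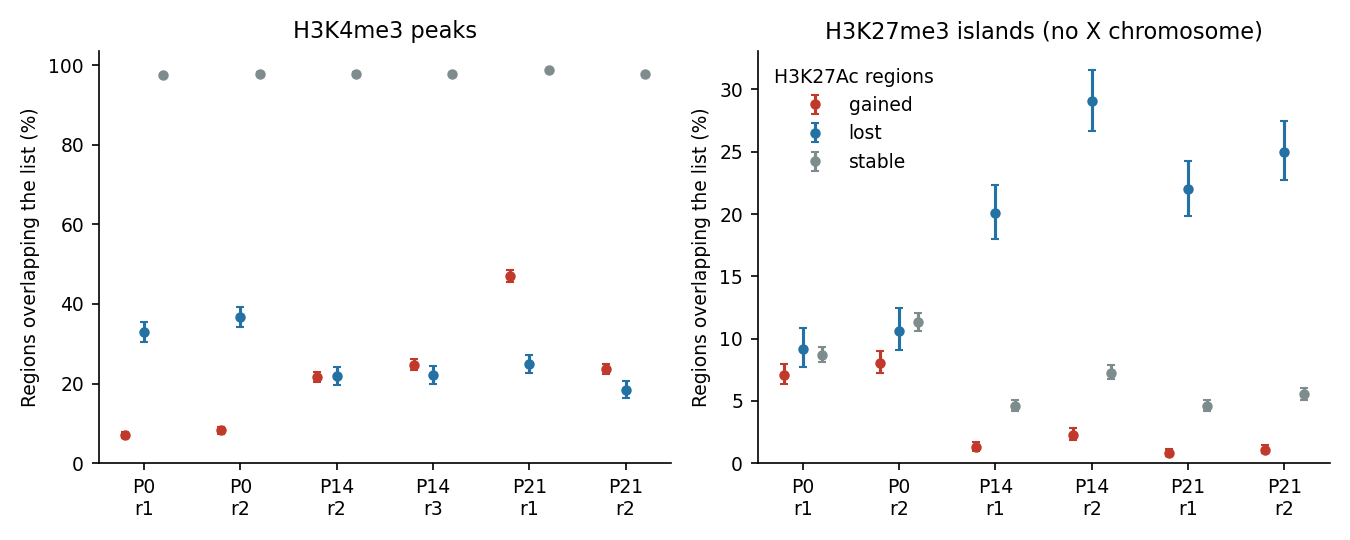
Share of gained, lost and stable H3K27Ac regions (vertical axes, %) overlapping an H3K4me3 peak (left) or, without the X chromosome, an H3K27me3 island (right) in each wild-type library of P0, P14 and P21 (r, replicate number of the label). Bars are Wilson 95% intervals. H3K27me3 met 20.1 and 29.0% of lost regions at P14 and 9.20 and 10.6% at P0.

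Distance to H3K4me3 separated the classes in the same way. An H3K4me3 peak of any P0 or P14 library lay within 1000 bp of 33.7% of gained, 40.7% of lost and 98.6% of stable regions. None lay within 10000 bp of 40.7% of gained regions, 45.8% of lost regions and 0.683% of stable regions. Another region of the same class lay within 10000 bp of 2261 gained (56.6%), 443 lost (33.2%) and 1821 stable regions (22.2%). Such shares rise with the number of regions in a class, yet stable regions, the most numerous, had the lowest share. Neighbouring regions can be parts of the same acetylated domain split by short gaps. These shares are therefore not counts of separate sites, and the part of such splitting in them was not tested.

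H3K4me3 heights were also compared between P14 and P0 by limma (lmFit and eBayes, on log2 heights scaled to the same median) at the 15986 H3K4me3 regions with a peak in all 4 H3K4me3 libraries. At an adjusted p under 0.05, 288 of these were higher at P14 (1.8%) and 898 were lower (5.62%). Of the 309 that overlapped a gained H3K27Ac region, 45 were higher and 1 was lower, with a median log2 change of 0.40 (P14 over P0). Of the 285 that overlapped a lost region, 0 were higher and 79 were lower, with a median of -0.74. Over all H3K4me3 regions tested the median was -0.01. Of the 7699 that overlapped a stable region, 119 were higher (1.55%) and 26 were lower (0.338%), with a median of 0.15. Leaving out each H3K4me3 library in turn gave between 24 and 37 higher at gained regions, with the least when P0 replicate 2 was left out and 29 without P0 replicate 1 or P14 replicate 2. It gave between 19 and 60 lower at lost regions, with 19 without P0 replicate 2, 31 without P0 replicate 1 and 51 without P14 replicate 3. The called H3K4me3 changes at gained and lost H3K27Ac regions thus mostly had the direction of the class. Most H3K4me3 regions there were not called in either direction.

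H3K27me3 was read from islands, broad domains called on each library, and without the X chromosome, because the list of P14 replicate 2 has no island there. This left 3962 gained, 1315 lost and 8002 stable regions. Of lost regions, 9.20 and 10.6% overlapped an island in the P0 libraries, 20.1 and 29.0% in the P14 libraries and 22.0 and 25.02% in the P21 libraries. Of gained regions, 7.12 and 8.08% overlapped one at P0, 1.26 and 2.30% at P14 and 0.833 and 1.09% at P21. Of stable regions these shares were 8.70 and 11.3%, 4.59 and 7.27%, and 4.60 and 5.52%. The lists covered 94.2 and 109 Mb at P0, 122 and 213 Mb at P14 and 139 and 140 Mb at P21, so the fall at gained and stable regions went against longer lists and the rise at lost regions went with them. The part of island list length in that rise was not tested. When the H3K27Ac lists were cut to equal length, with the island lists left whole, the shares at the then 2274 autosomal lost regions were 16.1 and 19.8% at P0 and 28.2 and 38.6% at P14.

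An island in both P14 libraries and neither P0 library was found at 128 lost regions, and at 115 of them (89.8%) both P21 libraries had it too. The reverse was found at 5 lost regions. Among gained regions, 168 had islands in both P0 libraries and neither P14 library, and 9 had the reverse. Islands in both P14 libraries and neither P0 library were thus found at 9.73% of lost, 0.227% of gained and 1.64% of stable regions. Islands in both P0 libraries and neither P14 library were found at 4.24% of gained, 0.3802% of lost and 4.15% of stable regions, so gained regions were close to stable regions in this share. At 3579 gained regions (90.3%) and 922 lost regions (70.1%) no wild-type P0 or P14 library had an island.

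Brg1 peaks of the single P0 library overlapped 1170 of 1334 lost regions (87.7%, interval 85.8 to 89.4%), 7649 of 8196 stable regions (93.3%, interval 92.8 to 93.8%) and 1027 of 3996 gained regions (25.7%, interval 24.4 to 27.1%). Lost and stable regions, which had a peak in both P0 libraries, therefore mostly held Brg1 at P0. The share with Brg1 among other regions with a P0 peak is not given here. At lists of equal length the share of gained regions with Brg1 was 37.7%. Among gained regions, Brg1 was present at 143 of the 244 with H3K4me3 at both stages (58.6%), at 143 of the 509 with H3K4me3 at P14 alone (28.1%) and at 620 of the 2920 without H3K4me3 (21.2%). Among lost regions the order was turned, with Brg1 at 75.3% of those with H3K4me3 at both stages and at 91.1% of those without. Brg1 was not measured at P14.

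The H3K27Ac libraries of other stages were not used to choose the regions. In the wild-type P12 library 97.6% of gained regions had a peak, 9.30% of lost regions and 99.7% of stable regions. At P21 the replicates held 18718 and 45833 peaks, and met 84.9 and 95.5% of gained regions, 0.0750 and 7.42% of lost regions and 78.3 and 99.7% of stable regions. The regions that separated P14 from P0 were thus on the P14 side at P12 and at P21. In P21 replicate 1, the shorter list, gained regions were met more often than stable regions, and their median heights were 6.11 and 5.03. In P21 replicate 2 the order was the reverse, with median heights of 6.60 at gained and 9.76 at stable regions. A region without a peak entered these medians as 0. At lists of equal length in the 4 libraries compared, 37.9% of lost regions had a P12 peak, so that loss was then less complete.

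In the BRG1 -/- P12 libraries, 91.3 and 96.1% of gained regions and 18.2 and 13.2% of lost regions had a peak. These lists held 40465 and 42887 peaks and the wild-type P12 list 47404. With 1 wild-type library at P12 the difference between genotypes has no wild-type spread and was not tested. Regions with a peak in P14 replicate 2 alone were met by the P12 list in 49.8% of cases and by P21 replicate 2 in 48.7%, and regions with a peak in P0 replicate 2 alone in 5.19 and 4.97%.

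**Figure D3:**
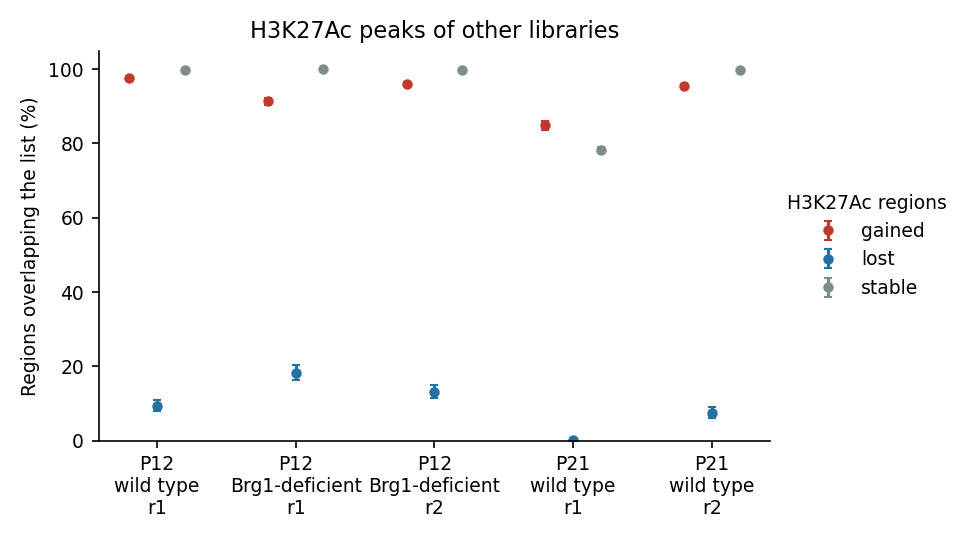
Share of gained, lost and stable H3K27Ac regions (vertical axis, %) with a peak in each H3K27Ac library of P12 (wild-type and BRG1 -/-) and P21 (wild-type). These libraries did not enter the choice of regions. Bars are Wilson 95% intervals. In the wild-type libraries gained regions were met in 84.9 to 97.6% of cases and lost regions in 0.0750 to 9.30%. In the BRG1 -/- libraries these shares were 91.3 and 96.1%, and 18.2 and 13.2%.

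Heights were tested at the 8196 stable regions, where every library gives a value, by limma on log2 heights after scaling the libraries to the same median. At an adjusted p under 0.05, 109 regions were higher at P14 (1.33% of those tested) and 25 were lower (0.305%). After scaling, both P14 heights lay above both P0 heights at 1873 regions (22.9%) and below at 1710 (20.9%). Replicates spread widely. The SD across regions of the log2 ratio between replicates was 0.56 at P0 and 0.68 at P14, and the SD of the fitted change was 0.60. A region that was not called is therefore not shown to be unchanged. Without scaling, limma called 0 regions in either direction (277 higher and 36 lower at an unadjusted p under 0.05). Without P0 replicate 1 there were 29 higher and 2 lower regions, without P0 replicate 2 there were 9 and 0 (257 lower at an unadjusted p under 0.05), without P14 replicate 1 there were 120 and 422, and without P14 replicate 2 there were 357 and 144.

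**Figure D4:**
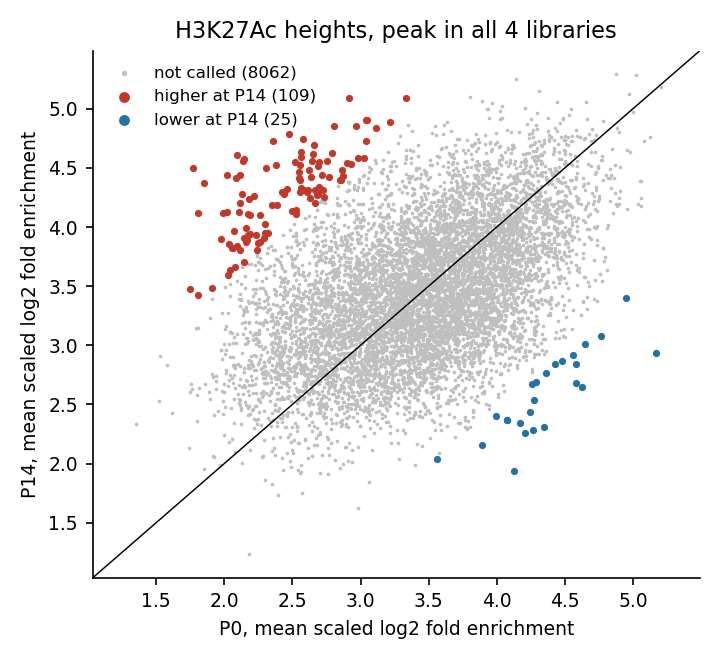
Mean log2 fold enrichment of the P0 libraries (horizontal axis) and of the P14 libraries (vertical axis) after scaling, for each of the 8196 regions with an H3K27Ac peak in all 4 libraries. The line marks equal heights, and the 109 regions higher and 25 lower at P14 by limma are coloured.

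The regions named from this test are examples from the 10 with the largest changes in each direction, and their adjusted p-values are those of limma over all 8196 regions. Each SE came mostly from a variance that limma shared over all regions (prior degrees of freedom 109.6). SE and p thus say little about the spread between the replicates of a single region. Heights of named regions are printed before scaling. At stable regions the median unscaled heights were 7.31 and 16.2 in P14 replicates 1 and 2. The region chr5:140382296-140389481, 7186 bp wide, had heights of 3.51 and 2.83 at P0 and 16.6 and 30.5 at P14, a log2 change of 2.73 (SE 0.44, adjusted p = 7.54e-05). It lay in H3K27me3 islands of both P0 libraries, 1 P14 library and both P21 libraries. H3K4me3 was called in all libraries, at 26.9 and 27.1 at P0 and 41.0 and 54.2 at P14. At this region H3K27Ac and H3K4me3 were both higher at P14 in each library.

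The region chr8:87467740-87471937 had H3K27Ac heights of 4.69 and 3.30 at P0 and 18.8 and 31.3 at P14 (log2 change 2.52, SE 0.44, adjusted p = 0.000254). The region chr2:167009728-167017466 had 4.63 and 3.61 at P0 and 23.2 and 24.1 at P14 (log2 change 2.43, SE 0.44, adjusted p = 0.000408). The region chr14:56137482-56146156, the widest of these at 8675 bp, had 3.34 and 4.93 at P0 and 21.5 and 25.5 at P14 (log2 change 2.42, SE 0.44, adjusted p = 0.000408). All 3 lay in H3K27me3 islands of both P0 libraries and of no P14 or P21 library. All 3 had H3K4me3 and Brg1 peaks at P0. Of the 10 higher regions, 8 had islands in both P0 libraries and 1 had an island at P14.

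The region chr11:17853149-17853966 fell from 30.7 and 36.0 at P0 to 3.48 and 16.7 at P14 (log2 change -2.23, SE 0.44, adjusted p = 0.00130). P14 replicate 2 was well above P14 replicate 1, and no H3K27me3 island lay there. The region chr13:78336687-78339079 had heights of 15.5 and 16.9 at P0 and 2.98 and 4.86 at P14 (log2 change -2.20, SE 0.44, adjusted p = 0.00132), and lay in islands of both P14 and both P21 libraries and of no P0 library. The region chr13:60276807-60278867 had the same islands, with 16.7 and 16.5 at P0 and 4.05 and 6.29 at P14 (log2 change -1.83, SE 0.44, adjusted p = 0.00946). The region chr11:120094685-120096596 had 17.1 and 18.5 at P0 and 4.86 in both P14 libraries (log2 change -1.98, SE 0.44, adjusted p = 0.00479), a Brg1 peak of 18.0, and islands in 1 P14 library and both P21 libraries. Of the 10 lower regions, 5 had an island at P14 and none at P0, 4 had no island in any P0, P14 or P21 library, and 1 had islands at P0 and none at P14. Those without any island include chr17:35840584-35842470, with heights of 14.9 and 19.5 at P0 and 5.44 and 4.16 at P14, and chr5:138596166-138597077, with 21.7 and 22.7 at P0 and 5.4999 and 7.45 at P14.

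The 109 higher regions had a median log2 change of 1.77, from 1.52 to 2.73, and a median width of 3368 bp, against 1518 bp for the regions that were not called. H3K4me3 was present in both libraries of both stages at 100 of them, and Brg1 at 106. H3K27me3 was read at the 108 on autosomes. Islands lay at 51 (47.2%, interval 38.1 to 56.6%) and 63 (58.3%, interval 48.9 to 67.2%) of them in the P0 libraries, at 0 (interval up to 3.43%) and 8 (7.41%, interval 3.80 to 13.9%) in the P14 libraries, and at 1 and 3 in the P21 libraries. Of the regions not called, 8.17 and 10.7% had an island at P0, 4.59 and 7.19% at P14 and 4.57 and 5.48% at P21. The same regions, of the same width, were thus met by islands often at P0 and rarely at P14, although the P14 island lists covered more of the genome. The part of width in the P0 shares was not tested. Islands in both P0 libraries were found at 46.3% of higher regions, at 24.1% without P14 replicate 2, and at 44.8 to 66.7% without each of the other libraries, the last from the 9 regions called without P0 replicate 2. When regions with a peak in only 2 or 3 libraries were added, with 2843 higher and 1230 lower regions called, the share was 6.76%.

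Of the 24 autosomal lower regions, 2 had an island in each P0 library, 6 and 8 in the P14 libraries and 7 and 8 in the P21 libraries. All 25 lower regions had H3K4me3 in both libraries of both stages, and 24 had Brg1. Of the 102 tested H3K4me3 regions that overlapped the higher regions, 18 were higher (17.6%) and 0 lower at P14. Of the 25 that overlapped the lower regions, 0 were higher and 2 were lower (8%). This share was near the 5.62% of all H3K4me3 regions tested and rests on 2 regions. At stable regions, which include the higher and lower regions, 1.55% of H3K4me3 regions were higher and 0.338% lower. The median log2 change of H3K4me3 was 0.55 at the higher, -0.47 at the lower and 0.15 at the stable regions. At P12, wild-type median heights were 15.2 at the higher, 9.36 at the lower and 11.8 at the remaining regions.

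**Figure D5:**
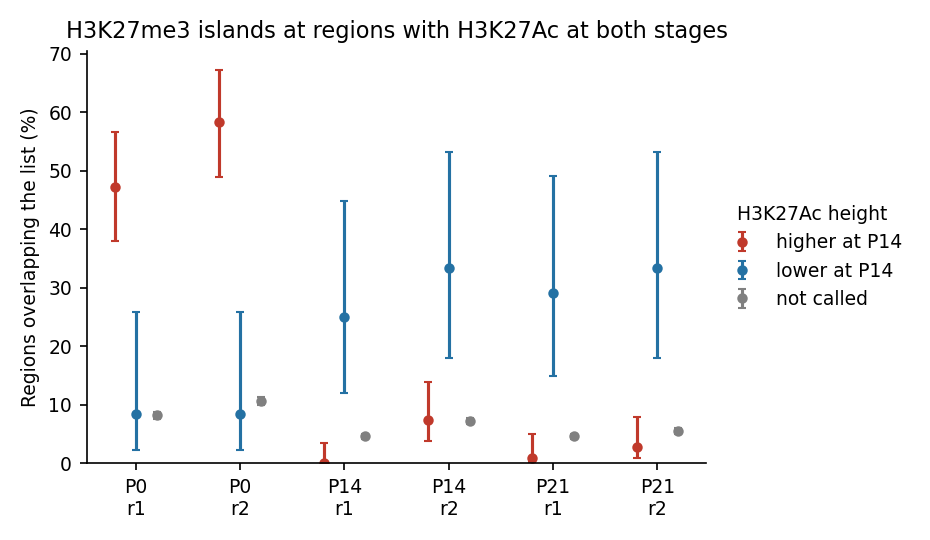
Share of regions (vertical axis, %) overlapping an H3K27me3 island in each wild-type library, for the autosomal regions with H3K27Ac in all 4 libraries that were higher at P14, lower at P14 or not called by limma. Bars are Wilson 95% intervals. Regions higher at P14 were met in 47.2 and 58.3% of cases at P0 and in 0 and 7.41% at P14.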

How the data were processed

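Per the labels, reads were placed on mm9, and the submitters' processing notes name CASAVA, BWA 0.5.9-r26, Picard 1.65, SAMtools, R 2.14.0, MACS2 2.0.9, bedtools 2.17.0 and SICER 1.1, with no order or role. For H3K27Ac, H3K4me3 and Brg1, the authors called peaks on every library alone and deposited each peak with its fold enrichment and −log10 q-value. For H3K27me3 they deposited islands, of which positions alone were used. The deposited score column was not used. Fold enrichment depends on the depth of its library, which is unknown, and sets which weak regions have a peak. Input libraries were not analysed here.

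Peaks were merged in Python 3.11.15 (pandas 2.3.3, numpy 2.4.6). The 58797 merged regions and the overlaps with 27 lists were checked with bedtools 2.31.1, and 0 lists differed. Lists of equal length held the 17433 peaks of highest −log10 q-value. Wilson 95% intervals were computed with scipy 1.17.1. Log2 heights were tested with limma 3.58.1 in R 4.3.3, with Benjamini-Hochberg adjustment at 0.05 over all regions tested, and the fit was tested on simulated data. An exact permutation test of 2 against 2 libraries cannot give a p below 0.333 and was not used. Figures were drawn with matplotlib 3.10.9.

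Replicate numbers are those of the titles. The H3K4me3 P14 libraries are titled replicates 2 and 3. Regions were named by rule: the 10 gained and 10 lost regions with the highest value of the lower of their heights, the 5 stable regions with the highest mean height, and the 10 regions with the largest log2 change in each direction past the limma threshold whose heights do not overlap, from which examples are printed. The members and lists were chosen with earlier results of these data known. Promoters and gene lists were not analysed here, because no mm9 annotation was used.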

Additional observations from a re-analysis of the deposited data

How the results depend on the processing

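Of the values recomputed under another setting, 89 stayed within the limits used (1.5 times for a count, the interval or the spread between replicates for a share), and 92 did not. The cause of such a move was not tested. Gained and lost regions need an absence of peaks at a stage, so shorter lists can add regions as well as remove them. Lists of equal length gave 2355 lost regions against 1334 from the full lists. The unknown depth limits the lists, since a weak region is called only in a library with enough signal. Where a stage was left with 1 library, that library was assumed to vary like the others. The promoter alternatives were not run.

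With the strongest 50% of each list there were 1924 gained, 233 lost and 4931 stable regions. With a peak in at least 1 library of a stage there were 31693, 9850 and 17254. With lists of equal length 2355 regions were lost. Leaving out each library in turn gave 4025 to 31891 gained, 1336 to 9720 lost and 8239 to 12538 stable regions. The added share of gained among gained and lost regions, chosen after seeing the data, ranged from 29.3 to 96.0% under these settings.

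Regions higher and lower at P14 numbered 2843 and 1230 with a peak in at least 2 of 4 libraries and a pseudocount at the 5th percentile, 3580 and 1331 with a pseudocount of 1, 0 and 0 without scaling, 40 and 3 with summed heights, and 59 higher after quantile normalization. Leaving out each library in turn gave 9 to 357 higher and 0 to 422 lower. The replicate number as a block gave 145 higher and 34 lower regions. The replicate differences of P0 and P14 were correlated across the 8196 regions with r = -0.007, so the numbers were not taken to pair the samples. No block could be fitted for H3K4me3, whose P0 and P14 libraries share 1 number.

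Shares with a mark in both libraries moved as follows. With lists of equal length, H3K4me3 met 11.6% of gained and 57.7% of lost regions at P0 and 28.6 and 47.6% at P14, Brg1 met 37.7% of gained regions, H3K27me3 met 7.53 and 15.3% at P0 and 27.7% of lost regions at P14, and the P12 library met 99.6 and 37.9%. With an overlap of at least 50% of the shorter interval, H3K4me3 met 5.56% of gained regions at P0 and 19.2% of lost regions at P14, Brg1 met 23.6 and 82.7%, and the P12 library met 96.4% of gained regions. With either replicate, H3K4me3 met 8.56 and 37.4% at P0 and 26.4 and 23.2% at P14, H3K27me3 met 9.26 and 11.0% at P0 and 2.40 and 29.4% at P14, and P21 H3K27Ac met 97.0 and 7.42%.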

Other observations

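The X chromosome differed from the autosomes in these lists. It held 34 gained, 19 lost and 194 stable regions, so that 13.8% of its regions in these classes were gained, against 25.3 to 35.4% on the single autosomes. It held 2.51 and 2.01% of the peaks in the P0 libraries and 1.73 and 1.29% in the P14 libraries. The median log2 change in height (P14 over P0) was -0.23 over its 194 stable regions and 0.02 over the 8002 on autosomes, with 1 region of the X chromosome called higher and 1 called lower. The sex of the animals is not given in the labels, and its part in these values cannot be told apart from that of the stage.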
